A study of Rattus norvegicus with 7 samples.

Results

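The 9 genes described here encode receptors for extracellular purines in the rat: the P2Y receptors P2ry1, P2ry2, P2ry6 and P2ry12, the P2X channels P2rx4 and P2rx7, and the adenosine receptors Adora1, Adora2a and Adora2b. They were chosen by name as a receptor family, selected on a reading of the same array signals that are given below, so their levels, differences and changes are descriptions without a test. Each of the 9 symbols was matched to 1 probe set of the array, and the family makes up 9 of the 4736 genes that the platform annotation names singly on its 8799 probe sets. RNA came from primary cultures of hippocampal neurons and of hippocampal astrocytes of Wistar rats labelled 17-day-old, where the label does not say whether this age is before or after birth. Neurons were exposed for 24 h to grape seed extract at 0, 1 or 10 µg/ml, and astrocytes to 0, 1, 10 or 100 µg/ml. The extract is a mixture of plant polyphenols and is not one defined agent. All cultures were kept in the same supplemented medium, and the labels give no genotype, sorting step or number of animals or cultures per array.

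Cells release ATP, ADP, UTP and UDP, and receptors at the surface of neighbouring cells read them. The P2Y receptors couple to G proteins: P2ry1 and P2ry12 respond to ADP, P2ry2 to ATP and UTP, and P2ry6 to UDP, while the P2X receptors are cation channels opened by ATP. Enzymes outside the cell break the nucleotides down to adenosine, which acts on Adora1 (coupled to inhibition of adenylyl cyclase) and on Adora2a and Adora2b (coupled to its stimulation). In brain, P2ry12, P2ry6, P2rx4 and P2rx7 are best known from microglia, P2ry1 from neurons and astrocytes, and Adora1 and Adora2a from neurons.

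Each culture and dose was measured on 1 array (7 in all), and this number limits the precision: a signal at one dose carries no replicate error. Median signals lay between 84.6 and 87.7 on the neuron arrays and between 65.4 and 84.1 on the astrocyte arrays, the lowest at 100 µg/ml. A floor of 17.9 (the 25th percentile over the arrays) was applied before taking log2. Of the 6 neuron markers on the array, 5 passed the signal filter and all 5 were higher in neurons, and their summed signal was 12141 to 12881 in neurons and 670.0 to 1420 in astrocytes. Nefl, Snap25 and Syp passed the filter only through neurons, so the count of 5 is partly set by the filter. The astrocyte label was less sharply borne out: of 8 tested astrocyte markers, 3 were higher in astrocytes, 2 were higher in neurons and 3 did not pass (limma, adjusted p below 0.05). Sparcl1 had 11525 in untreated astrocytes and 6865 in untreated neurons and S100b had 9085 and 1996, while Slc1a3 had 3976 and 9877 and Aqp4 had 567.0 and 949.9. The summed signal of the 9 astrocyte markers was 34922 to 40085 in astrocytes and 34449 to 35687 in neurons. Each probe set has its own response, so a sum over markers is weighted to its bright probe sets, and receptor levels are not ranked against each other.

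The start of P2ry2, the receptor with the largest increase over the astrocyte doses, is shown as RefSeq gives it on GRCr8, from 250 bases before to 50 after the start of the gene (chr1:164779439-164779738, minus strand). Such a window was matched for 6 of the 9 genes. Capitals mark every match, on either strand, to 3 motifs chosen after the signals were seen: ACGTG (core of the hypoxia response element), TGANTCA (the AP-1 site) and TGACG (core of the cyclic AMP response element).
P2ry2: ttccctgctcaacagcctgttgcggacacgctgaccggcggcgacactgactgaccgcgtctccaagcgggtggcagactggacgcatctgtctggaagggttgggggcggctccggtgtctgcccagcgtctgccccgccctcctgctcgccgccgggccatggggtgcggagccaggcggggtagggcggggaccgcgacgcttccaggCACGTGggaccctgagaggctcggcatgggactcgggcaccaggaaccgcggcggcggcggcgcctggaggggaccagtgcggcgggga
The window holds 1 stretch that reads ACGTG on both strands and no match to the other motifs. Over all 33469 windows of this length, 19.3% hold ACGTG, 7.33% hold TGANTCA and 21.2% hold TGACG. The P2rx4 window holds 1 match to TGACG, and the windows of P2ry1, P2rx7, Adora1 and Adora2b hold none of the 3 motifs. A loose pattern for the factor NF-kB was also searched and is not shown. A match is a string of letters and does not show that a factor binds there.

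**Figure D1:**
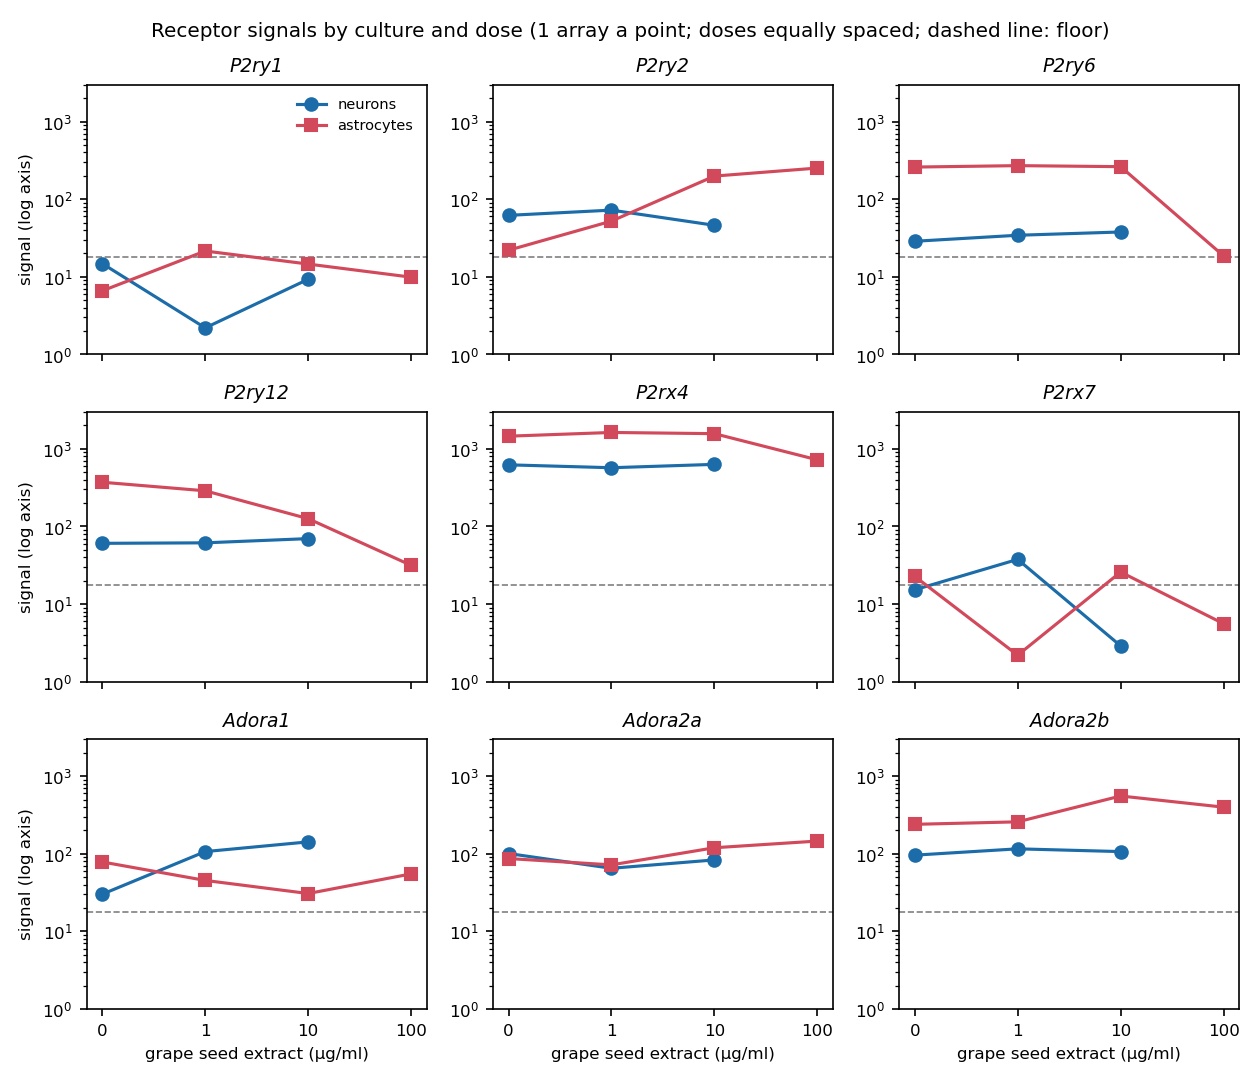
Signal of the 9 receptors (log axis) against the dose of extract, with doses equally spaced; each point is 1 array, circles are neurons, squares are astrocytes, and the dashed line is the floor of 17.9. P2ry2 is higher at each of the 4 astrocyte doses, from 22.0 to 251.7, P2ry12 is lower at each, from 371.5 to 31.6, and P2ry6 stays between 259.2 and 270.4 up to 10 µg/ml and is at 18.6 at 100 µg/ml.

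P2ry6, P2ry12, P2rx4 and Adora2b were higher in astrocytes than in neurons at each of the 3 doses given to both. In untreated cultures alone Adora1 was also higher in astrocytes, by 2.60-fold, but not at the other doses. The first 4 genes had no overlap between the 3 neuron and the 3 astrocyte arrays and a mean log2 difference of at least 1, and all 4 were higher in astrocytes. By the same measure 6.16% of all 8740 probe sets, and 9.65% of the 4736 that passed a signal filter, were higher in astrocytes. The genes were selected on these signals, so nothing is read from the count. The median log2 difference, astrocytes minus neurons, was 0.15 over the 9 genes, 0.00 over all probe sets and -0.07 over the filtered ones. Of the 9 genes, 5 passed the filter, which asks for a mean log2 signal above that of 79.9 in either cell type.

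Among the P2Y receptors, P2ry6 had neuron signals of 28.7, 34.3 and 37.8 with rising dose (0, 1 and 10 µg/ml), and astrocyte signals of 259.2, 270.4 and 262.4. Every astrocyte array at these doses lay far above every neuron array, with means of 264 ± 5.77 (SD, n = 3) and 33.6 ± 4.59 (SD, n = 3), 7.91-fold apart on the log2 scale (2.98 ± 0.12, SE). P2ry12 had 60.7, 61.6 and 69.8 in neurons and 371.5, 288.2 and 126.1 in astrocytes. The groups did not overlap, but the gap narrowed with dose, from 6.12-fold without extract to 4.68-fold at 1 µg/ml and 1.81-fold at 10 µg/ml (mean log2 difference 1.90 ± 0.47, SE). The P2ry12 probe set comes from an expressed sequence tag, so its gene name rests on the platform annotation.

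P2ry2 showed no fixed order of the cell types. Its signals were 61.9, 72.3 and 46.1 in neurons and 22.0, 52.2 and 198.4 in astrocytes at the same doses. Astrocytes were lower than neurons without extract and 4.30-fold higher at 10 µg/ml, so the groups overlapped and the mean log2 difference of 0.05 ± 0.94 (SE) lay within its error. P2ry1 lay at or under the floor on 6 of 7 arrays, with 21.5 in astrocytes at 1 µg/ml as its highest signal, and no difference can be read from it.

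Of the ATP-gated channels, P2rx4 had signals of 622.5, 571.4 and 631.2 in neurons and 1456, 1626 and 1569 in astrocytes. The groups did not overlap and the difference was close to the same at each dose, from 2.34-fold to 2.85-fold (1.35 ± 0.06 log2, SE). P2rx7 was at or under the floor on 4 of 7 arrays and reached 37.7 at most, on the neuron array at 1 µg/ml.

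Of the adenosine receptors, Adora2b had 96.1, 115.9 and 106.8 in neurons and 239.7, 258.1 and 555.3 in astrocytes. The groups did not overlap, and the difference was 2.49-fold, 2.23-fold and 5.20-fold at 0, 1 and 10 µg/ml (1.62 ± 0.40 log2, SE). Adora2a had 100.8, 65.1 and 83.4 in neurons and 86.9, 72.0 and 119.7 in astrocytes, which overlapped (0.15 ± 0.28 log2, SE). Adora1 had 30.2, 106.8 and 142.4 in neurons and 78.5, 45.4 and 30.8 in astrocytes. Its order reversed between untreated and treated cultures, and the mean difference of -0.69 ± 0.79 (SE, log2) lay within its error. Without the untreated neuron array the Adora1 groups no longer overlapped, with neurons 2.58-fold higher, so that 1 array decides whether this gene is counted as different between the cell types.

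**Figure D2:**
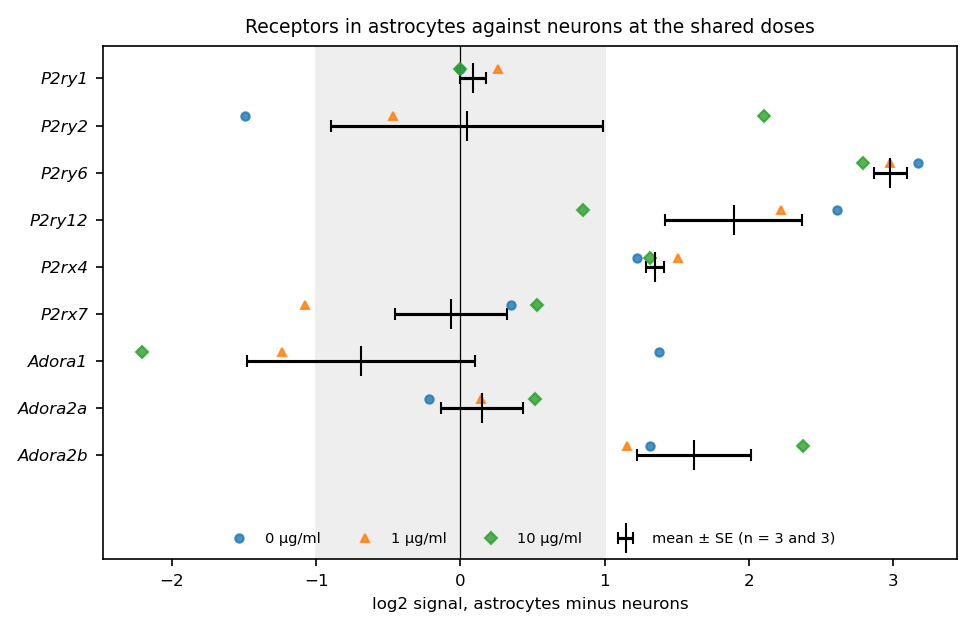
Difference in log2 signal between astrocytes and neurons for each receptor at 0, 1 and 10 µg/ml (symbols) and as a mean with its SE over the 3 doses (bars); the grey band marks differences under 2-fold. P2ry6, P2ry12, P2rx4 and Adora2b have all 3 points above 0, whereas the points of P2ry2 and Adora1 lie on both sides of it.

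The standard errors above come from arrays at different doses, so they hold the effect of the extract as well as the error of the arrays. With the astrocyte array at 100 µg/ml added, which has no neuron counterpart, only P2rx4 and Adora2b of the 4 genes kept groups that did not overlap and a difference of at least 2-fold. P2ry6 (2.03 log2) and P2ry12 (1.17 log2) then overlapped, because both were lower on that array than on any neuron array.

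In astrocytes at 100 µg/ml, P2ry6 and P2ry12 were more than 10-fold lower and P2ry2 more than 10-fold higher than in untreated astrocytes. P2rx4 was about 2-fold lower, and the adenosine receptors stayed within 2-fold on the deposited scale. With 1 array at each dose these are sizes without a test. By count, 3 of the 9 genes were at least 2-fold lower and 1 higher, while 20.7% of all probe sets and 25.6% of the 4252 that passed the filter in astrocytes differed 2-fold in either direction. The median log2 change was -0.35 over the 9 genes, -0.05 over all probe sets and -0.26 over the filtered ones. Of the 9 genes, 6 passed that filter.

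P2ry6 was at 259.2, 270.4, 262.4 and 18.6 at 0, 1, 10 and 100 µg/ml. The 3 lower doses were nearly equal and the highest dose stood apart, 13.9-fold below the untreated array (-3.80 log2) and just above the floor. P2ry12 was at 371.5, 288.2, 126.1 and 31.6. It was lower at each step, by 1.29-fold, 2.95-fold and 11.8-fold of the untreated signal, so at 10 µg/ml it was below its untreated signal while P2ry6 was not. P2rx4 was at 1456, 1626, 1569 and 722.4, with only the highest dose below the others (2.02-fold, -1.01 log2). Relative to the median change of -0.26 it was at -0.75 log2, which is under 2-fold.

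P2ry2 was at 22.0, 52.2, 198.4 and 251.7, higher at each step. The differences from the untreated array were 2.37-fold, 9.02-fold and 11.4-fold, so most of the difference was present at 10 µg/ml and the step from 10 to 100 µg/ml was 1.27-fold. The untreated signal lay close to the floor, and against the 1 µg/ml array the highest dose was 2.27 log2 higher, whereas it was 3.52 higher against the untreated array. P2ry2 and P2ry12 were the 2 receptors whose signal stepped in 1 direction at every dose and by at least 4-fold in all, as did 2.21% of all probe sets. That measure was chosen after the signals were seen.

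Adora2b was at 239.7, 258.1, 555.3 and 398.9, with its highest signal at 10 µg/ml (2.32-fold) and 1.66-fold at 100 µg/ml. Adora2a was at 86.9, 72.0, 119.7 and 145.9, or 1.68-fold at the highest dose. Relative to the median change of all filtered probe sets, Adora2a was at 1.01 log2 and Adora2b at 1.00 log2 at that dose, so both lie at the 2-fold line and their side of it turns on the scaling. Adora1 was at 78.5, 45.4, 30.8 and 55.1. All treated arrays were below the untreated one, most so at 10 µg/ml (2.55-fold), in a range of low signals. P2ry1 was at 6.60, 21.5, 14.6 and 9.90 and P2rx7 at 22.8, 2.20, 25.9 and 5.60, around and under the floor, so no change can be read from either.

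At 10 µg/ml, 2 of the 9 genes were at least 2-fold higher in astrocytes (P2ry2 and Adora2b) and 2 lower (P2ry12 and Adora1). The background was 8.33% of all probe sets and 6.51% of those that passed the filter. At 1 µg/ml, P2ry2 alone was past 2-fold, with 5.33% and 2.00% of probe sets, respectively. The median change over the 9 genes was 0.11 log2 at 10 µg/ml and 0.06 at 1 µg/ml.

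**Figure D3:**
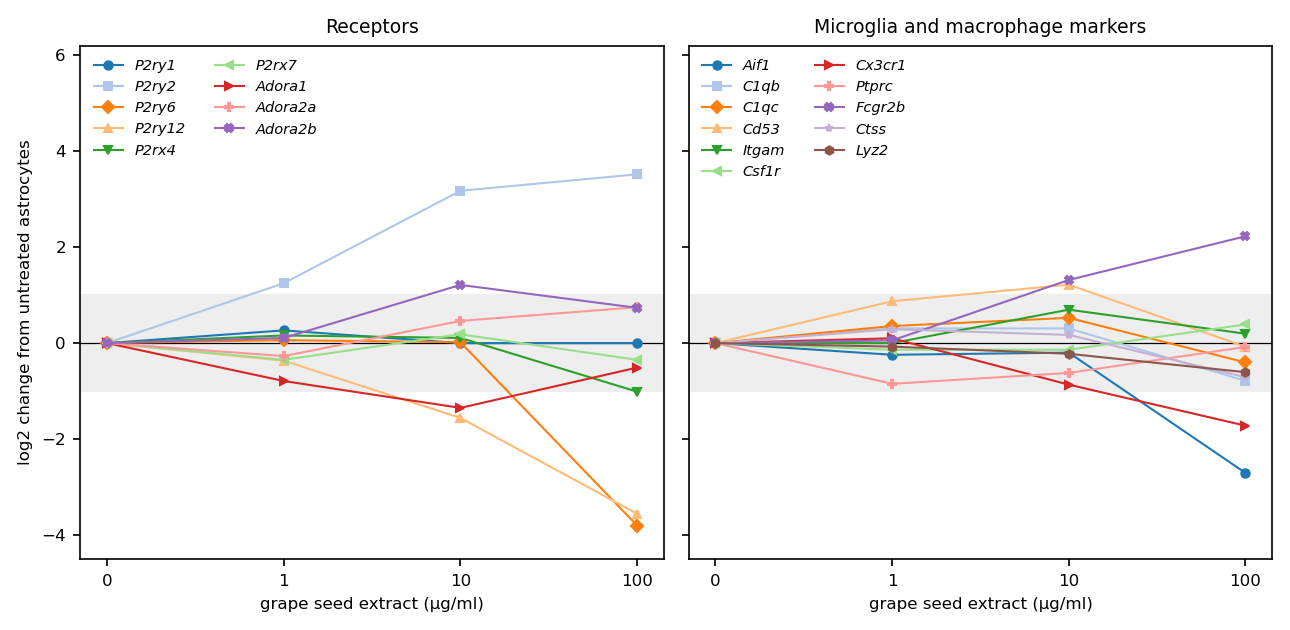
Change in log2 signal from the untreated astrocyte array at 1, 10 and 100 µg/ml (doses equally spaced, 1 array a point) for the 9 receptors and for the 11 microglia and macrophage markers on the array; the grey band marks changes under 2-fold. P2ry6 (-3.80) and P2ry12 (-3.56) lie below every marker at 100 µg/ml, of which Aif1 (-2.71) and Cx3cr1 (-1.72) are lowest.

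The astrocyte cultures also carried signals of microglia and macrophages, which are known sources of P2ry6, P2ry12 and P2rx4. Markers of other lineages differed between the cultures as well: 5 of 5 tested oligodendrocyte lineage markers were higher in astrocyte cultures (Mbp by 5.94 log2), as were 5 of 6 fibroblast and meningeal markers (Col3a1 by 4.76). Their summed signals were 8731 to 14057 against 2183 to 2300 in neurons, and 35847 to 48533 against 14585 to 17088. Mbp, Mobp and Lum passed the filter only through astrocytes, so the counts for these lineages are partly set by the filter. Of the microglia and macrophage list, all 7 tested markers were higher in astrocyte than in neuron cultures, among them C1qb (3.68 log2, adjusted p = 2.69e-05), Ctss (1.60, 1.21e-05) and Lyz2 (0.41, 0.0245) in the limma fit. The summed signal of the 11 markers, of which Lyz2 gave 15616 of 26103 in untreated astrocytes, was 25998 to 27253 in astrocytes up to 10 µg/ml and 17086 at 100 µg/ml, against 11895 to 15036 in neurons. At 100 µg/ml 2 markers were at least 2-fold lower, Aif1 (6.53-fold) and Cx3cr1 (3.30-fold), 1 was higher, Fcgr2b (4.68-fold), and 8 were within 2-fold, from C1qb (1.72-fold lower), Ctss (1.64-fold lower) and Lyz2 (1.52-fold lower) over Cd53 (1.05-fold lower) and Ptprc (1.06-fold lower) to Itgam (1.15-fold higher) and Csf1r (1.31-fold higher). The probe sets of Aif1 differed at that dose, from -2.71 to 0.35 log2. Those of Ptprc ran from -1.84 to -0.08, of C1qb from -1.12 to -0.79 and of C1qc from -1.07 to 0.21. Each of these genes thus had a probe set more than 2-fold lower, though its brightest was within 2-fold. Within this list, Itgam (13.7 to 29.0) and Csf1r (7.60 to 25.8) were near or under the floor on all astrocyte arrays. Others lay well above it in untreated astrocytes, such as C1qb (2722.1), Aif1 (1636.5), Cd53 (425.3) and Cx3cr1 (93.3). At 10 µg/ml, where P2ry12 was 2.95-fold lower, no marker was 2-fold lower at its brightest probe set. Cx3cr1 was 1.82-fold lower, and Cd53 and Fcgr2b were 2.32-fold and 2.49-fold higher. Whether these cells have a part in the receptor signals was not tested, and in RNA from whole cultures fewer cells of a type and less RNA per cell cannot be told apart.

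Markers of other cells also differed at that dose. The summed signal of 9 astrocyte markers was 37757 untreated and 34922 at 100 µg/ml, with 2 of 9 at least 2-fold lower. That of 7 oligodendrocyte lineage markers was 10514 and 8731 with 2 of 7 lower, and that of 6 fibroblast and meningeal markers was 48533 and 44023 with 1 of 6 lower. The 4 endothelial markers summed to 182.5 to 258.5 on all astrocyte arrays. Their part in the receptor changes was not tested.

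In neurons most receptors stayed close to their untreated signal, and at 10 µg/ml Adora1 was the 1 receptor past 2-fold. Its signals were 30.2, 106.8 and 142.4, so both treated arrays were above the untreated one, by 3.54-fold and 4.72-fold, and they differed from each other by 0.42 log2. Both changes rest on the same low untreated signal, and Adora1 did not pass the signal filter in neurons. P2rx7 was also past 2-fold at the lower dose, at least 2.11-fold above the floor under which its untreated signal lay. The share of all probe sets past 2-fold in either direction was 4.08% at the higher dose and 4.06% at the lower one, and among filtered probe sets it was 0.764% and 0.561%. That filter left 4453 probe sets in neurons, 3 of the 9 receptors among them. P2ry6, P2ry12, P2rx4 and Adora2b, the genes that were higher in astrocytes, stayed within 1.32-fold of the untreated neurons at both doses. P2ry2 was 1.17-fold higher and 1.34-fold lower, respectively. Adora2a was 1.55-fold lower at the lower dose and 1.21-fold lower at the higher one.

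The other genes of purine signalling on the array were tested between the cell types over the 6 arrays at shared doses (limma, adjusted over all 4736 probe sets). Of 31 tested genes, from 45 on the array and 68 listed, 8 were higher in neurons, 8 were higher in astrocytes and 15 did not pass. This share of 51.6% stands beside 44.6% of all tested probe sets. Among the genes called, Entpd1, Enpp3 and Slc29a1 passed the filter only through astrocytes, and Gnai1, Plcb1, Itpr2 and Rgs4 only through neurons. A filter of this kind favours such calls, so nothing is read from the counts or the share. The enzymes that break down nucleotides outside the cell were all higher in astrocytes where they passed, 4 of 5 tested. Entpd1, which removes phosphates from ATP and ADP, had 22.3, 41.8 and 17.1 in neurons and 206.2, 189.1 and 273.6 in astrocytes, and differed by 3.11 ± 0.33 log2 (SE, limma). Enpp2, an ectoenzyme that also makes lysophosphatidic acid, differed by 2.58 ± 0.13 (limma adjusted p = 3.84e-06). Enpp3, a nucleotide pyrophosphatase, had 10.1, 32.6 and 41.2 in neurons and 96.2, 101.6 and 114.1 in astrocytes, and differed by 1.85 ± 0.32. Entpd1 and Enpp3 each lay under the floor on 1 neuron array and passed the filter only through astrocytes. Both are therefore descriptions, with sizes that depend on the floor, and the 4 enzymes counted above include them. Entpd2, an ATP-preferring relative of Entpd1 named after its value was seen, differed by 1.08 ± 0.11 (limma adjusted p = 1.66e-04). Alpl, a phosphatase, did not pass (-0.44 ± 0.19, limma adjusted p = 0.0986).

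Of 4 tested genes for nucleoside transport and use, Slc29a1, the equilibrative nucleoside transporter, was higher in astrocytes by 1.45 ± 0.22 log2 (SE, limma). With 82, 85.6 and 55.3 in neurons, Slc29a1 passed the filter only through astrocytes, so its difference is a description. Adk, adenosine kinase, did not pass (-0.29 ± 0.17, limma adjusted p = 0.194). Of 2 tested receptor genes outside the family studied, P2rx6 was slightly higher in neurons (astrocytes minus neurons -0.51 log2, adjusted p = 0.0372, limma) and P2rx2 did not pass (0.06 in the same direction of subtraction, limma adjusted p = 0.753). Among 20 tested G proteins and effectors, 7 were higher in neurons and 3 in astrocytes. Plcb1, a phospholipase C driven by Gq, was higher in neurons, with an astrocyte minus neuron difference of -3.74 ± 0.15 log2 at its brightest probe set and of -3.74 to -0.16 over its probe sets. Its astrocyte signals were 79, 60.8 and 64.3, so Plcb1 passed the filter only through neurons and its difference is a description. Gnao1, the alpha subunit of Go, was at -3.44 ± 0.12. Rgs4, which shortens G protein signals, had 273.9, 213.1 and 369.3 in neurons and 7.30, 5.80 and 32.5 in astrocytes, under the floor on 2 of 3 astrocyte arrays, so its fitted difference depends on the floor and is not given as a size. Plcb4 (0.87 ± 0.20), Itpr3, an inositol trisphosphate receptor (0.58 ± 0.19), and Arrb2, an arrestin (0.56 ± 0.12), were higher in astrocytes. Over the probe sets of each gene the difference was 0.28 to 0.87 for Plcb4, 0.34 to 0.58 for Itpr3 and 0.56 to 0.68 for Arrb2.

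**Figure D4:**
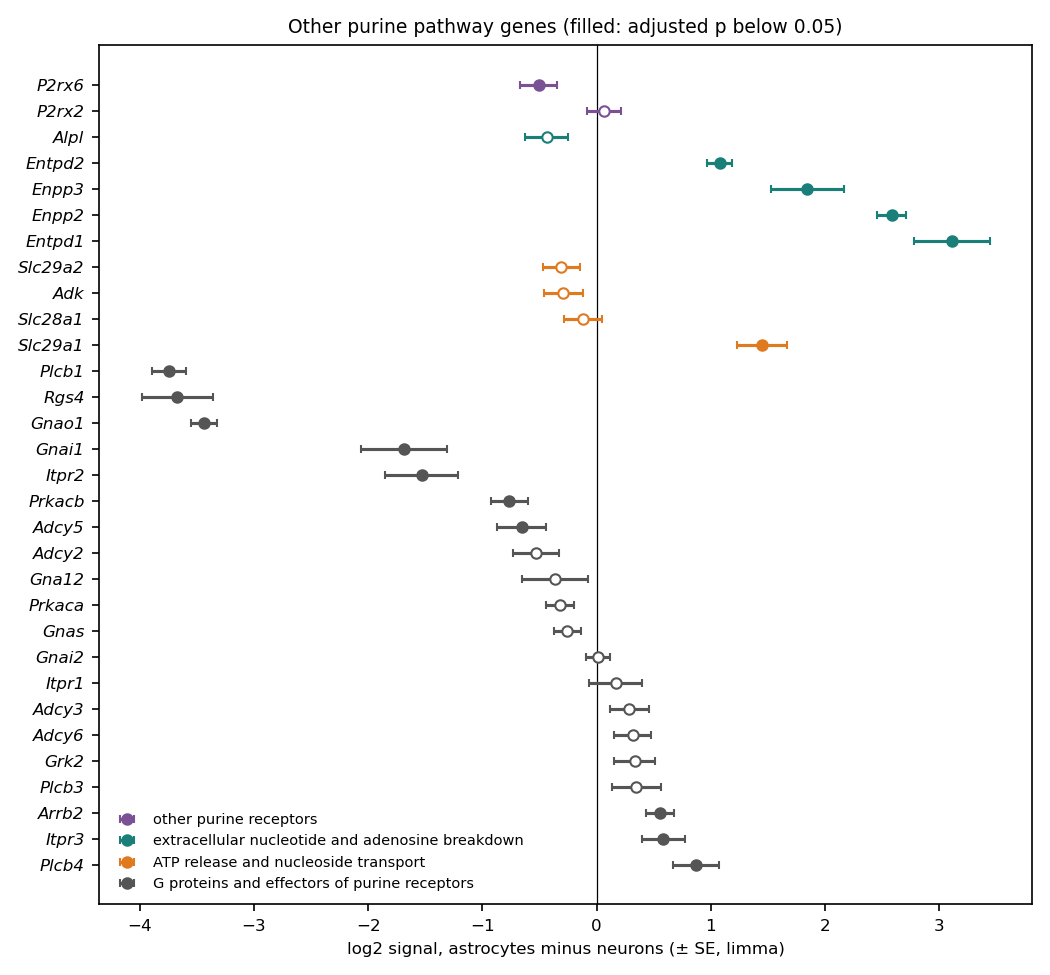
Difference in log2 signal between astrocytes and neurons (limma estimate with its SE, 3 arrays each at 0, 1 and 10 µg/ml) for the 31 tested genes of purine signalling that are not among the 9 receptors; filled points passed an adjusted p of 0.05. Entpd1, Enpp2, Enpp3 and Entpd2 lie to the right and Plcb1, Rgs4 and Gnao1 farthest to the left.

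With 100 µg/ml in astrocytes, Rgs4 had signals of 7.30, 5.80, 32.5 and 267.9 over the 4 doses, and Adcy4, an adenylyl cyclase, 27.8, 59.7, 108.7 and 200.4 (7.21-fold). Rgs4 was at least 15.0-fold higher than the floor under which its untreated signal lay. Itpr1, an inositol trisphosphate receptor of the Gq pathway, had 356.5, 292.8, 195.5 and 41.8 (8.53-fold lower), although its probe sets ranged from -3.09 to 0.00 log2. The related Itpr2 (-0.17 log2) and Itpr3 (0.65) were within 2-fold. Plcb4 was 3.44-fold lower at its brighter probe set, with 175.4 untreated and 51.0 at 100 µg/ml, but its other probe set was at -0.92 log2, under 2-fold. In the whole list of G proteins and effectors, to which no filter was applied, 2 of 26 genes were at least 2-fold higher and 4 lower. The list had a median of -0.35 log2. Over all probe sets the share past 2-fold was 20.7% and the median -0.05, and over the filtered ones 25.6% and -0.26. Whether the list differs from either was not tested. Of the 7 nucleotide-degrading enzymes on the array 1 was higher, Enpp1 (8.80 and 37.0, in a range near the floor), and 1 lower, Alpl (3554 and 1547, with probe sets from -1.20 to 1.30 log2). Of 7 other purine receptors, P2ry14 was higher (48.2 untreated and 133.5 at 100 µg/ml, 2.77-fold) and 6 were within 2-fold. For P2rx1 (25.2 and 8.3) and P2rx5 (23.7 and 16) the floor limits the size, since both ended under it. The probe sets of P2rx2 ran from -1.16 to 0.17 log2. All 5 genes for ATP release and nucleoside transport were within 2-fold.

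For the 5 receptors whose log2 signal spanned at least 2 over the 7 arrays, the most similar profiles were sought by Pearson's r among 1000 probe sets with a span as large. These coefficients have no p, and the arrays share cell type and dose. P2ry2 was most like Nfkbia (r = 0.972), an inhibitor of NF-kB, whose signals over the astrocyte doses were 667.8, 993.4, 4036 and 7897, then Gch1 (0.954) and Fosl1 (0.949). P2ry6 was most like Arl11 (0.995), with 970.4, 1048, 1009 and 91.4 in astrocytes and 161.5 to 180.6 in neurons, then Klf9 (0.991) and Apobec1 (0.986). P2ry12 was most like Id3 (0.997), with 7938, 7073, 3329 and 1332 in astrocytes and 2114 to 2271 in neurons, then Fhl2 (0.986) and Tbxas1 (0.963). Adora2b was most like Psmb8 (0.985), with 906.9, 788.7, 1887 and 1152 in astrocytes, then Cyp1b1 (0.984) and Errfi1 (0.983). For Adora1 the highest coefficients were lower, with Nppa (0.749), Glycam1 (0.639) and Fat1 (0.631).

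**Figure D5:**
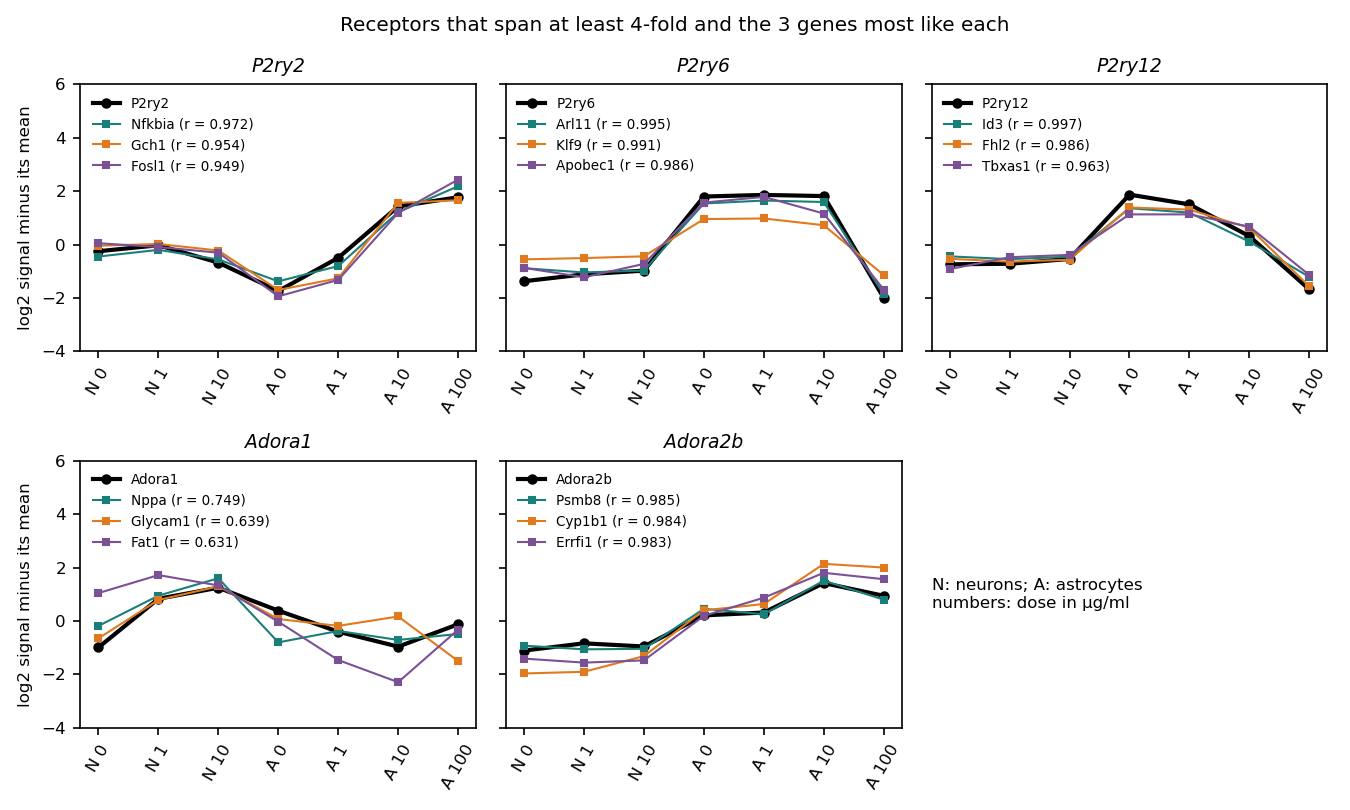
Log2 signal minus its mean over the 7 arrays for the 5 receptors that span at least 4-fold (black) and the 3 genes with the highest Pearson's r for each (coloured); N is neurons, A is astrocytes and the numbers are doses in µg/ml. P2ry6 and Arl11 (r = 0.995) drop together on the last astrocyte array, and P2ry12 and Id3 (r = 0.997) step down over the astrocyte doses.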

How the data were processed

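The authors deposited linear intensity values, scaled per array (2%-trimmed means of 500.7 to 500.9). GCOS was used, per the submitters' processing notes, with its version not given in the sources used here. RNA was isolated on silica membranes and 100 ng was amplified in a two-cycle labelling, per the labels' protocols.

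Of 8799 probe sets, 59 controls were left out. A single symbol was given for 7006 of the other 8740, several for 308 and none for 1426. These 7006 name 4736 genes, by coincidence also the number of probe sets tested. A gene with several probe sets is given by its brightest. The floor was the 25th percentile (17.9) and the filter the median (79.9), applied to mean log2 signals per cell type. Cell types were compared over the 6 arrays at shared doses with limma 3.58.1 in R 4.3.3 (trended prior, two-sided, Benjamini-Hochberg, 0.05, 4 residual degrees of freedom), tested on simulated data. Dose changes have no test. Named genes were all receptors; per pathway list, the 3 largest calls each way and the 2 largest changes of at least 2-fold each way at 100 µg/ml; per marker list, bright genes; and the 3 most similar profiles. Genes that did not pass (Alpl, Adk, P2rx2), Gnai1, Itpr2, P2rx1, P2rx5 and the markers Aif1, C1qc, Cx3cr1, Itgam, Csf1r, Cd53, Ptprc, Fcgr2b, Slc1a3, Aqp4, Mbp, Mobp, Col3a1, Lum, Snap25 and Syp were named after their values were seen. The receptors and lists were chosen with earlier results of these data known. The labels do not say that arrays stand for separate cultures, so p-values measure only the spread between these arrays. Figures used Python 3.11.15 and matplotlib 3.10.9.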

Additional observations from a re-analysis of the deposited data

Results flagged for a closer look

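For 2 receptors every treated array of one cell type moved one way from its untreated array and every treated array of the other cell type moved the opposite way; the difference was not tested. Adora1 was higher by a mean of 2.03 log2 in treated neurons and lower by -0.88 in treated astrocytes, a difference of 2.91, with both untreated signals (30.2 and 78.5) dim. P2ry12 was at a mean of 0.11 log2 in treated neurons, which is nearly no change, and at -1.83 in treated astrocytes, a difference of 1.94. Both astrocyte means include the 100 µg/ml array, which has no neuron counterpart. Over 1 and 10 µg/ml alone, a choice made after seeing the data, the astrocyte means were -0.96 for P2ry12 and -1.07 for Adora1, and the differences 1.07 and 3.10.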

How the results depend on the processing

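No receptor past 2-fold or counted as different between cell types changed sign under the alternatives run (quantile normalization, no floor, centring on the median change, the mean over probe sets, other reference arrays, all 7 arrays, and each of the 6 shared-dose arrays left out). The count of receptors that differed between cell types was 4, with all 7 arrays it was 2, and with 1 array left out it was 4 to 5. Without a floor 3 receptors were past 2-fold in astrocytes at 1 µg/ml (1 with it) and 2 in neurons at 10 µg/ml (1 with it), the added ones being P2ry1 and P2rx7, whose signals lie around the floor. With quantile normalization the count in neurons at 1 µg/ml was 1 (2 without). In astrocytes the count was 4 to 5 at 100 µg/ml and 3 to 5 at 10 µg/ml, but the genes in it changed at 100 µg/ml. With quantile normalization P2rx4 was at -0.85 log2, under 2-fold, while Adora2a (1.20) and Adora2b (1.03) were past 2-fold. With centring on the median change P2rx4 (-0.75) left the count and Adora2a (1.01) entered it. Without a floor P2rx7 (-2.03) was added. With the 1 µg/ml array as reference, chosen after seeing the data, Adora1 in astrocytes was at -0.56 log2 at 10 µg/ml and at 0.28 at 100 µg/ml, where it had been at -0.51. Of the pathway genes 16 were called, 7 with a stricter signal filter (435.7), which tests fewer genes, 14 with dose as a replicate block, all of them among the 16, and 12 to 17 with 1 array left out. Signals near or under the floor limit P2ry1 and P2rx7 on most arrays, P2ry2 untreated (22.0) and P2ry6 at 100 µg/ml (18.6).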
